A study of Mus musculus with 2 samples.

Results

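Genes by which the intestinal epithelium speaks to the immune system were examined in mouse small-intestinal villi: Pigr, the chemokine genes Ccl25, Ccl28, Ccl20, Cxcl16 and Cx3cl1, and the cytokine genes Il18, Il15 and Tnfsf13. These 9 genes were taken by symbol, and the transcript with the highest mean stood for a symbol with several transcripts. Values were analysed for 6 of the 9, among 20722 symbols in all, and Ccl28, Ccl20 and Tnfsf13 were not analysed here. Of the 6 genes, 5 had a mean of at least 20 normalised reads over both libraries and are called measured, and Il15 did not.

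Messenger RNA was sequenced from 1 library per genotype, both from the C57BL/6 strain. The control mouse was Rosa26-CreERT2 Cdkn2a-/-, so it lacked Cdkn2a and carried, at the ubiquitously active Rosa26 locus, a Cre recombinase that tamoxifen switches on. The label of the other library was Rosa26-CreERT2 Cdkn2a-/- Ring1a-/- Ring1bf/f, with constitutive loss of Ring1 (Ring1a) and a conditional allele of Rnf2 (Ring1b), and it is called dKO-labelled. Both mice received 3 injections of tamoxifen and the villi were taken 6 days later. The sources used here give neither the age nor whether animals were pooled. The 2 ligases are the catalytic subunits of Polycomb repressive complex 1, which places ubiquitin on histone H2A and holds developmental genes silent. The question of the comparison is what changes in villi without both ligases.

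The control library held 775827 reads and the dKO-labelled one 1058196, and no difference between them has a replicate check. Where read counts are given in pairs, the control comes first. Printed intervals are 95% exact intervals for counting error alone. Ring1 had 10 reads in each library and Rnf2 had 59 and 82, so the counts of whole transcripts did not check the label. All 10 epithelial marker genes were measured, from Krt20 (1965 and 2146 reads) to Cldn7 (109 and 144). Their summed reads had a ratio of 1.18 (1.15 to 1.22), whose direction follows the scaling: the log2 ratio of Epcam was 0.22 with the deposited size factors but -0.08 when scaled by total counts, -0.29 by TMM and -0.47 by the upper quartile. Not all markers changed sign: Vil1 and Krt19 lay above 0, and Cdh1 and Krt20 below 0, with each of these scalings. Fibroblast and smooth muscle markers summed to 58 and 356 reads, 5.53-fold higher over all 10 analysed genes (4.18 to 7.43). Xist had 80 and 1 reads, so sex and genotype label cannot be told apart. The part of stromal RNA and of sex in the results below was not tested.

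The polymeric immunoglobulin receptor, encoded by Pigr, is made by villus and crypt epithelium. It binds dimeric IgA from plasma cells at the basal side, carries it across the cell and releases it into the lumen as secretory IgA. Chemokines of the same cells place lymphocytes: CCL25 draws T cells and plasma cell precursors that bear CCR9 into the small intestine, and CXCL16 and CX3CL1 are made as membrane-bound proteins for cells that bear CXCR6 and CX3CR1. IL-18 is stored as a precursor that inflammasome caspases cut, and IL-15 sustains intraepithelial lymphocytes.

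The upstream sequences of Pigr and Ccl25 are shown because these were the 2 genes whose ratio passed 2-fold. They are the 250 bases before the start site in the RefSeq promoter table, build GRCm38.p6, and in both the start of the measured transcript in GENCODE M21 was the same base. The plus strand of chr1:130826434-130826683 is given for Pigr and that of chr8:4349338-4349587 for Ccl25. Capitals mark the only motif found.
Pigr: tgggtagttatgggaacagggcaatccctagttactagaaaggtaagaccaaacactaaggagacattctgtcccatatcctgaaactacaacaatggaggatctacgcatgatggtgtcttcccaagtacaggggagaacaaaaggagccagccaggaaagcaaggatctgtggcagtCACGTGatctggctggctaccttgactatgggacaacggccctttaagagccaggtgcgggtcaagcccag
Ccl25: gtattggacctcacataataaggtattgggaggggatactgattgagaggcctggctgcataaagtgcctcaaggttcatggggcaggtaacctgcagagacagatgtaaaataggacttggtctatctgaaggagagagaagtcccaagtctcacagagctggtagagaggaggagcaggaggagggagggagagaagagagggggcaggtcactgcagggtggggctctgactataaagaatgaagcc

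Both strands were searched for the E box CACGTG, which USF factors bind, and for the NF-kB consensus. The core of the interferon-stimulated response element was searched as GAAANNGAA, and the site of GATA factors as AGATAA. Sites of CDX factors were searched as TTTATGG and, in a variant with another base near the end, as TTTATTG. Pigr held 1 E box, whose first base lies 71 bases before the start site, and no other match. An E box was present in 6.02% of the 32851 upstream sequences of the table. The Ccl25 sequence had no match to any of these motifs, which says only that the letters are not in this window. The table lists a second Ccl25 start site, 24378 bases away from that of the measured transcript, whose upstream sequence was 74.8% G and C against 51.6% for the one shown. Of the 6 analysed genes, 4 had an entry. For the other two, Cx3cl1 and Il18, the listed start lay 171 and 10674 bases from that of the measured transcript, so their sequences are not printed.

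Among the measured genes, Pigr and Ccl25 were at least 2-fold higher in the dKO-labelled library, Cxcl16, Cx3cl1 and Il18 lay within 2-fold, and 0 were at least 2-fold lower. The call used log2 of the ratio of deposited normalised reads, each with 1 added. Of 6001 measured genes in the whole table, 26.2% met this limit upward and 4.18% downward. The median log2 ratio of the 5 genes was 0.55, beside 0.51 over all measured genes. A count of 2 in 5 does not set the group apart from this background. The 5 genes ranged from -0.14 to 3.46. With that overall median taken as the reference, Ccl25 alone was at least 2-fold higher, a call that the minimum mean fixes, and 0 were lower, where 11.8% and 10.4% of measured genes were. The counting interval lay wholly beyond 2-fold for Pigr and Ccl25, as it did upward for 10.4% and downward for 1.73% of measured genes. An exact binomial test on the reads, which compares these libraries and not the conditions, called Pigr, Ccl25 and Cx3cl1 higher, among 49.5% of measured genes called higher and 11.5% lower.

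Pigr had 613 control reads and 1548 reads in the dKO-labelled library. After scaling by the deposited size factors these were 646 and 1469.7 normalised reads, a 2.28-fold difference (2.07 to 2.50). Its log2 ratio of 1.18 was higher than that of 80.0% of measured genes. The call rested on the scaling of the libraries: the log2 ratio of Pigr was 0.89 with total counts, 0.67 with TMM (a trimmed mean of ratios) and 0.49 with the upper quartile, each above 0 and under 2-fold. In 1 bulk library per group, more cells of a type and more RNA per cell cannot be told apart.

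Ccl25 had 2 control reads and 46 reads in the dKO-labelled library, 2.11 and 43.7 normalised reads. The ratio was 20.7-fold with a wide interval (5.42 to 176), because it rests on 2 control reads. Its log2 ratio of 3.46 is smaller than the log2 of that fold, because 1 was added to deposited values that already hold an added read. With a mean of 23.9 normalised reads, Ccl25 passed the minimum of 20 only through the dKO-labelled library. At 2 control reads any gene that passes has a high ratio, so its call and its place in the distribution follow from the filter and are given as a description. These values belong to transcript NM_009138. A non-coding transcript of the same gene, NR_033527, had 0 reads in both libraries, and how reads shared by both transcripts were counted is not stated.

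Cxcl16, whose product is shed by the protease ADAM10, had 287 and 288 reads. With the deeper dKO-labelled library scaled, these were 302 and 273 normalised reads, a ratio of 0.905 (0.765 to 1.07) that includes 1. Its log2 ratio of -0.14 became -0.44 with total counts, -0.66 with TMM and -0.84 with the upper quartile, never past 2-fold. It was the lowest of the 5 ratios.

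Cx3cl1, which encodes fractalkine, had 134 and 218 reads, or 141 and 207 normalised reads, and was 1.47-fold higher (1.18 to 1.83). Its log2 ratio of 0.55 lay next to the median of all measured genes. With the upper quartile it was -0.14, so its direction followed the scaling. Il18 had 80 and 110 reads, or 84.3 and 104 normalised reads, a ratio of 1.24 (0.921 to 1.67) that includes 1. Its log2 ratio of 0.30 became -0.21 with TMM and -0.38 with the upper quartile.

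Il15 had 0 and 1 reads, at or under the floor of 3 reads, and no fold is given. At this depth a count of 0 allows up to 3 reads, so a difference was not detectable. In the authors' deposited table the unadjusted DESeq p-value was 0.0349 for Ccl25, 0.365 for Pigr, 0.682 for Cx3cl1, 0.829 for Il18, 0.914 for Cxcl16 and 1 for Il15. With 1 library per group these have no replicate spread behind them.

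**Figure D1:**
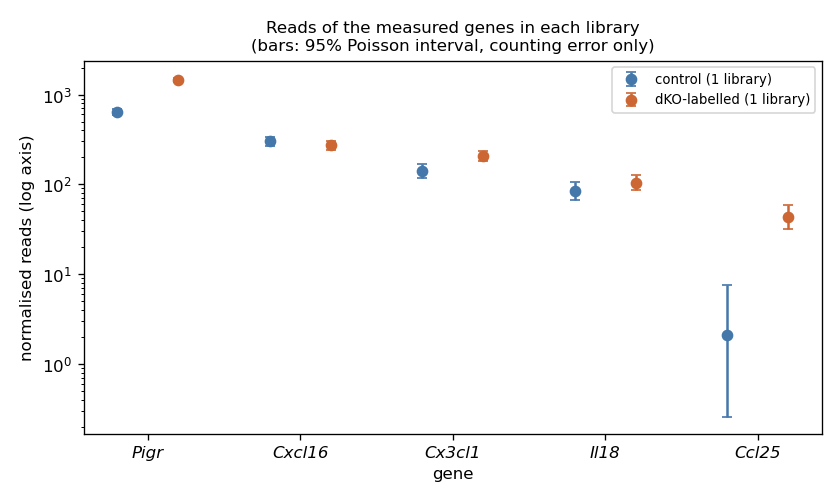
Normalised reads (log axis) of the 5 measured genes in the control and the dKO-labelled library, 1 library each, with 95% Poisson intervals as bars. The intervals of the libraries are apart for Pigr, Ccl25 and Cx3cl1 and overlap for Cxcl16 and Il18.

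**Figure D2:**
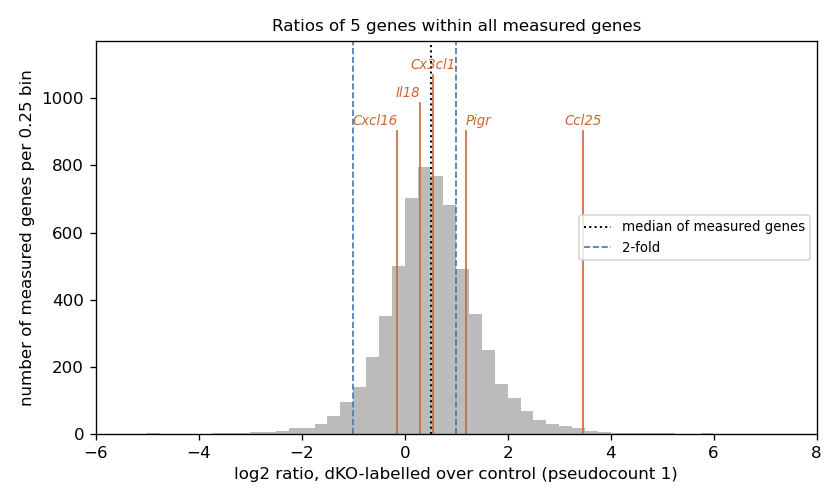
Number of measured genes by log2 ratio (dKO-labelled over control, pseudocount 1), with the 5 genes as vertical lines, the median of 0.51 dotted and 2-fold dashed. Cxcl16 lies on the lower side, Il18 and Cx3cl1 near the middle, Pigr on the upper side and Ccl25 in the upper tail.

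The order of levels was compared per kilobase of transcript, with lengths from GENCODE M21. In the control, Pigr led with 168 normalised reads per kilobase, followed by Cxcl16 with 112, Il18 with 98.0, Cx3cl1 with 42.6 and Ccl25 with 1.99. Cxcl16 and Il18 did not differ beyond counting error there, with intervals of 99.4 to 126 and 77.7 to 122. In the dKO-labelled library Pigr had 382 normalised reads per kilobase, Il18 121, Cxcl16 101, Cx3cl1 62.4 and Ccl25 41.3. Again the intervals of Il18 (99.8 to 146) and Cxcl16 (89.9 to 114) overlapped, and here those of Cx3cl1 (54.4 to 71.3) and Ccl25 (30.2 to 55.1) did too.

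Shares within a library do not depend on the scaling between libraries. Of the reads of the 6 analysed genes, 1116 and 2211, Pigr took 54.9% (52.0% to 57.9%, Clopper-Pearson) and 70.0% (68.1% to 71.9%). The share of Cxcl16 was 25.7% (23.2% to 28.4%) and 13.0% (11.6% to 14.5%). Ccl25 had 0.179% (0.0217% to 0.646%) and 2.08% (1.53% to 2.77%). The make-up of the group therefore differed beyond counting error. Pigr holds most of the sum, so the lower share of Cxcl16, at 287 and 288 reads, in part restates the Pigr difference. It does so only in part, because Cx3cl1 (134 and 218 reads) and Il18 (80 and 110) also had more reads in the dKO-labelled library.

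Set against Cxcl16 in the same library, Pigr had 2.14 and 5.38 reads per Cxcl16 read, 2.52 times as many (2.07 to 3.05). The same ratio was 22.9 for Ccl25 (5.88 to 196), 1.62 for Cx3cl1 (1.23 to 2.14) and 1.37 for Il18 (0.971 to 1.94). Cxcl16 had the lowest ratio among the measured genes of this group, so all 4 values lie above 1 through the choice of reference. Only the Il18 interval of these 4 includes 1. Against the summed reads of the 10 epithelial markers, 9974 and 13099, the ratio was 1.92 for Pigr (1.74 to 2.12), 17.5 for Ccl25 (4.58 to 149) and 0.764 for Cxcl16 (0.645 to 0.905). For Cx3cl1 it was 1.24 (0.993 to 1.55) and for Il18 1.05 (0.777 to 1.42), both including 1. Per summed epithelial read, Pigr was thus higher and Cxcl16 lower in the dKO-labelled library, with intervals that cover counting error alone. The single markers ran from 0.844-fold (Cdh1) to 2.05-fold (Krt19), beside 2.28-fold for Pigr and 0.905-fold for Cxcl16. Pigr thus lay above each single marker, and the size of its result depends on the markers summed. Its counting interval (2.07 to 2.50) overlapped that of Krt19 (1.83 to 2.29). Cxcl16 lay above Cdh1 and below the other markers, so for Cxcl16 the direction also depends on the markers. The high ratios of Ccl25 follow from its 2 control reads and the minimum mean, and are given as a description.

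**Figure D3:**
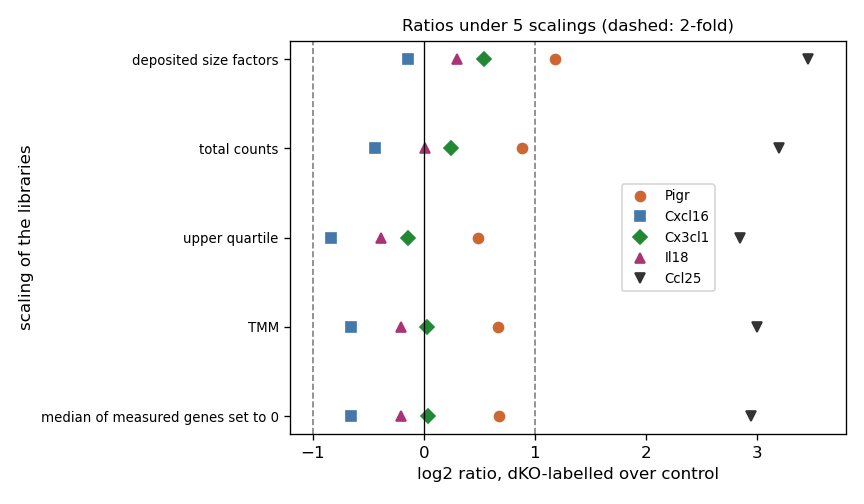
Log2 ratio (dKO-labelled over control) of the 5 measured genes under 5 scalings of the libraries, with 2-fold dashed. Ccl25 lies beyond 2-fold in all 5, which its low control count and the minimum mean fix, Pigr passes it with the deposited size factors only, and Il18 and Cx3cl1 lie on both sides of 0.

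The receptors of these ligands were sparse. Of 13 analysed receptor genes, 1 was measured: Cx3cr1, the fractalkine receptor of macrophages, with 37 and 55 reads, 1.34-fold (0.867 to 2.09). Over all 13 genes there were 51 and 80 reads, a ratio of 1.41 (0.983 to 2.05). Cxcr6, the receptor of CXCL16, had 0 and 6 reads, at least 1.80-fold higher when the control is set to a floor of 3 reads, though the lower limit of its counting interval was 1.06. Il2rg, the common gamma chain used by IL-15, had 1 and 9 reads, a ratio of 8.11 with a counting interval of 1.12 to 356.

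The remaining receptor genes had at most 5 reads in a library. For IL-15, Il2rb had 5 and 3 reads and Il15ra 0 and 1. For IL-18, Il18r1 had 4 and 1 and Il18rap 0 and 1. The CCL28 receptors Ccr10 and Ccr3 had 1 and 0 and 0 and 2 reads, and the CCL20 receptor Ccr6 had 0 in both. Tnfrsf13b had 1 and 0, Tnfrsf17 1 and 2, and Tnfrsf13c, which binds BAFF, 1 and 0. Ccr9, the receptor of CCL25, was not analysed here. At this depth differences in these receptors were not detectable.

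Immune cells were few in the reads. T cell and intraepithelial lymphocyte markers (11 genes) summed to 108 and 179 reads, 1.49-fold (1.17 to 1.91). Of these reads Gzma had 64 and 94, Gzmb 9 and 30, and Cd7 20 and 18, whereas Ptprc had 0 in both and Cd3e 0 and 3. B and plasma cell markers (9 genes) summed to 152 and 344, 2.04-fold (1.68 to 2.49), of which Sdc1, also an epithelial gene, had 116 and 238. Macrophage and dendritic cell markers (10 genes) summed to 227 and 314, 1.25-fold (1.05 to 1.49), and endothelial markers (9 genes) to 66 and 58. The endothelial genes went both ways: Tie1 had 48 and 5 reads, whereas Lyve1 had 1 and 19, Plvap 3 and 13, and Vwf 0 and 10, all named after their values were seen. The part of these cells in the results was not tested.

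Genes that process or release the ligands lay on both sides of 2-fold. Of 19 analysed, 12 were measured, of which 4 were higher and 2 lower by at least 2-fold, with a median log2 ratio of 0.04 beside 0.51 over all measured genes, of which 26.2% were higher and 4.18% lower. With the upper quartile or TMM, 4 were higher and 4 lower. Of all 6001 measured genes, 542 were then higher and 870 lower with the upper quartile, and 719 and 629 with TMM. Pycard, the inflammasome adaptor ASC, had 24 and 198 reads and was 7.44-fold higher (4.86 to 11.9). Nlrp6, an inflammasome sensor of the intestinal epithelium, had 24 and 182 reads and was 6.84-fold higher (4.45 to 10.9). Casp4, the mouse caspase-11 gene that responds to lipopolysaccharide, had 25 and 97 reads, 3.50-fold (2.23 to 5.67). Casp1, which cuts pro-IL-18 and completes the 4, had 34 and 126, 3.34-fold (2.27 to 5.03).

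Il18bp, which encodes the secreted protein that binds and blocks IL-18, had 70 and 15 reads. It was 5.18-fold lower in the dKO-labelled library (2.93 to 9.74), and it passed the minimum mean only through the control. Naip6, the other gene at least 2-fold lower, had 60 and 32 reads, and its reads can be shared with close Naip paralogs, so its value is uncertain. Casp1 and Naip6 were named after their values were seen. These 4 higher and 2 lower genes kept their call under all 5 scalings, although the log2 ratio of Casp1 came down to 1.00 with the upper quartile. The other 6 measured genes of the list lay within 2-fold with the deposited size factors.

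Among genes of IgA secretion and transport, 22 were analysed and 12 measured, with 4 at least 2-fold higher, 1 lower and a median log2 ratio of 0.85. Over all measured genes the shares were 26.2% and 4.18% and the median 0.51, so the higher count is near the background. Aldh1a1, a retinaldehyde dehydrogenase, had 24 and 163 reads, 6.12-fold higher (3.97 to 9.83). Rab3d, a small GTPase of secretory vesicles, had 51 and 178, 3.15-fold (2.29 to 4.38). Tgfb1, a cytokine that drives switching to IgA, had 11 and 41, 3.36-fold (1.70 to 7.25). Tgfb1 passed the minimum mean only through the dKO-labelled library. Igj, the joining chain of dimeric IgA and a product of plasma cells, had 29 and 82, 2.55-fold (1.65 to 4.04), and was named after its value was seen.

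Tnfsf13b, which encodes BAFF, the B cell survival factor most closely related to the product of Tnfsf13, had 91 and 32 reads and was 3.15-fold lower (2.09 to 4.88). It kept its call under all 5 scalings, as did Aldh1a1. Igj was at least 2-fold higher with the deposited size factors only, and Rab3d and Tgfb1 in 4 of 5 scalings. With the upper quartile 1 gene of this list was higher and 1 lower, beside 542 and 870 of all 6001 measured genes.

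Transcription factors linked to these genes mostly lay within 2-fold. Of 21 analysed, 15 were measured, 1 was at least 2-fold higher and 0 lower, with a median log2 ratio of 0.17, beside 26.2%, 4.18% and 0.51 over all measured genes. The exception was Cdx1, an intestinal homeobox factor, with 64 and 249 reads, 3.51-fold higher (2.65 to 4.69) and past 2-fold under all 5 scalings. Its relative Cdx2 had 127 and 278 reads, 1.97-fold (1.59 to 2.45).

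Receptors and adaptors through which cytokines and microbes act on the epithelium had a lower median ratio than measured genes at large. Of 26 analysed, 16 were measured, 0 were at least 2-fold higher and 1 lower, with a median log2 ratio of 0.02. Over all measured genes 26.2% were higher and 4.18% lower, with a median of 0.51. Il4ra, the shared receptor chain of IL-4 and IL-13, had 204 and 111 reads, 2.04-fold lower (1.61 to 2.59). Il13ra1, its partner, had 344 and 192 reads with a log2 ratio of -0.98, Traf6 125 and 74 with -0.89, and Ifnlr1, the interferon-lambda receptor, 142 and 88 with -0.83. With total counts 4 genes were at least 2-fold lower, and with the upper quartile 6. The lower count over all 6001 measured genes also rose with these scalings, from 251 to 424 and 870.

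Other cytokine and chemokine genes were mostly at low counts. Of 25 further cytokine and growth factor genes 3 were measured: Tnfsf10, encoding the death ligand TRAIL, with 17 and 48 reads (2.55-fold, 1.44 to 4.72), Kitl with 27 and 45, and Mif with 79 and 115. Tnfsf10 was past 2-fold with the deposited size factors only, and it passed the minimum mean only through the dKO-labelled library. Of 27 further chemokine genes 6 were measured, with a median log2 ratio of 0.51. Ccl5, a chemokine of lymphocytes, had 15 and 58 reads and was 3.49-fold higher (1.95 to 6.62). Cxcl10, induced by interferon, had 35 and 16 and was 2.43-fold lower (1.31 to 4.70). Both kept their call under all 5 scalings, although the log2 ratio of Ccl5 came down to 1.01 with the upper quartile. Ccl5 passed the minimum mean only through the dKO-labelled library and Cxcl10 only through the control, so their ratios are given as a description. Ccl24 (17 and 37 reads) and Ccl6 (152 and 251) lay within 2-fold.

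**Figure D4:**
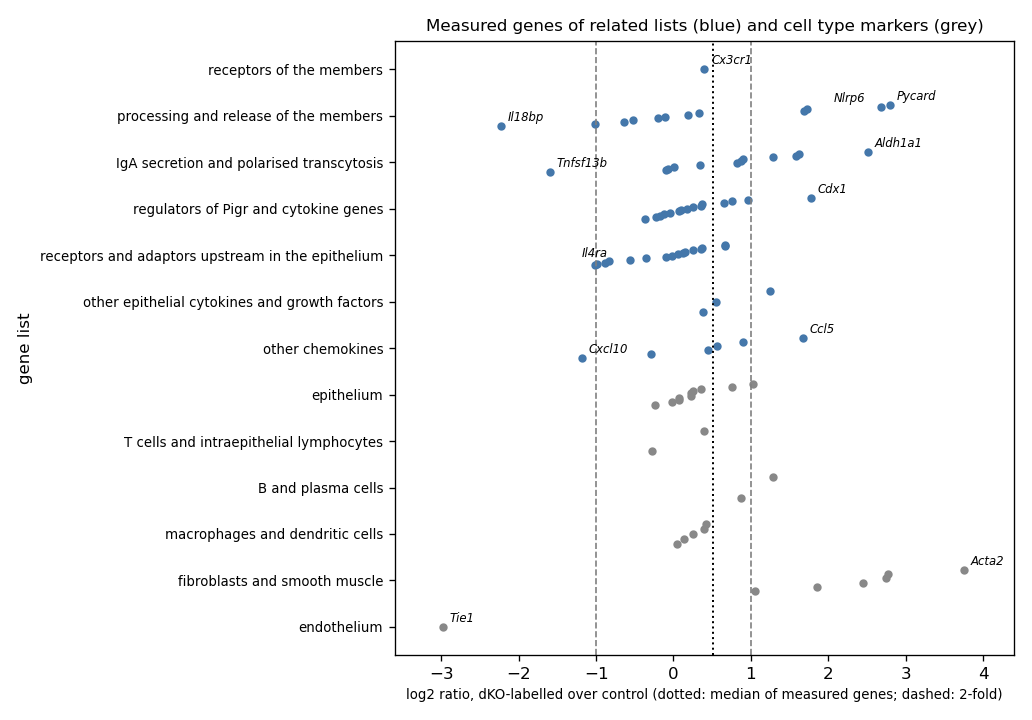
Log2 ratio (dKO-labelled over control) of each measured gene in 7 related lists (blue) and 6 marker lists (grey), 1 point per gene, with the median of all measured genes dotted and 2-fold dashed. Pycard and Nlrp6 lie beyond 2 log2 units above 0 and Il18bp beyond 2 below it, and the measured fibroblast and smooth muscle markers lie above 2-fold, most of them having passed the minimum mean through the dKO-labelled library.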

How the data were processed

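Per the labels, RNA of villi was purified with a column kit, prepared with a TruSeq RNA v2 kit and sequenced, 1 library for each genotype. The submitters' processing notes name TopHat, DESeq and build mm9. The counter and its strand setting are not stated. Per the file headers, the deposited signal values of 22040 RefSeq transcripts are base means, that is, counts normalised by DESeq. All values (100%) were whole multiples of their column's smallest within 0.001 of a step. They were read as counts with 1 read added, an inference from the values, and reads were recovered as steps minus 1. The deposited fold (ratio) divides the dKO signal by the control signal, and the deposited log2 value is its logarithm. The p-value that the authors deposited is unadjusted.

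Genes were called by size without a test, at 2-fold of log2((dKO + 1)/(control + 1)) and a mean of at least 20. Folds are ratios of reads divided by the size factor ratio of 1.11, with Clopper-Pearson limits. Ratios between genes of 1 library have exact conditional intervals. All members are named, every receptor, and, of each other list, the measured genes of largest absolute log2 ratio, at most 4. A few genes that this rule names are not reported here. The members and lists were chosen with earlier results of these data known. The alternatives tried were scaling by total counts, by the upper quartile or by TMM (edgeR 4.0.16, R 4.3.3), a pseudocount of 5, other minimum means, the counting interval, and summed transcripts. Added after seeing the data were the median of measured genes set to 0 and a binomial test, exact, on the reads, which compares the libraries, not the conditions. Computing used scipy 1.17.1, numpy 2.4.6 and pandas 2.3.3 in Python 3.11.15, figures used matplotlib 3.10.9, and the functions were tested on simulated data. Of 33 symbols written as dates, 32 were resolved with RefSeq GRCm38.p6, which is not the build of the files, so coordinates are given for promoters of that build only.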

Additional observations from a re-analysis of the deposited data

How the results depend on the processing

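No paired analysis was possible because the genotypes have a single library each, and for the same reason no replicate could be left out. The genes at least 2-fold higher, 2 of the 5 measured, numbered 1 (Ccl25) under total counts, upper-quartile scaling, TMM or a median of measured genes set to 0. They numbered 1 (Pigr) with the minimum mean raised to 100, and the binomial test on the reads called 3, with Cx3cl1 added. Of the measured genes 0 were 2-fold lower under the 9 alternatives. The median log2 ratio of the measured genes, 0.55, was 0.25 (total counts), -0.14 (upper quartile), 0.032 (TMM) and 0.038 (median set to 0). The first 3 of these scalings moved the median over all measured genes by -0.29, -0.68 and -0.51.

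Over all genes, 1574 were higher and 251 lower. Total counts gave 1009 higher and 424 lower, the upper quartile 542 and 870, TMM 719 and 629, and the median set to 0 gave 711 and 626. Without a minimum mean there were 3704 and 892, and with a minimum of 100 there were 358 and 104. A counting interval wholly beyond 2-fold gave 627 and 104, and the binomial test at an adjusted p under 0.05 gave 2972 and 690. These last 4 pairs differ by construction, through other genes tested or another call. A pseudocount of 5 kept both counts within 1.5 times. Of 36 values of single members under alternatives, 22 stayed within their counting interval. That count says little of stability, since the wide intervals of Ccl25 and Il15 held every value and summing transcripts changed none. Pigr and Cxcl16 left their intervals with total counts, the upper quartile, TMM and the median set to 0. Cx3cl1 and Il18 left theirs with each of these except total counts. Depth limits Ccl25, which rests on 2 control reads, and Il15 with 0 and 1 reads.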
